A study of Mus musculus with 6 samples.

Results

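The genes of oxidative phosphorylation were compared between mice that lack Sting1 in myeloid cells and their floxed controls, in ligated veins holding a thrombus. Members were chosen by gene symbol alone: mt-Nd, mt-Cyt, mt-Co and mt-Atp genes, and the nuclear Nduf, Sdha to Sdhd, Uqcr, Cox4 to Cox8 and Atp5 genes. This gave 104 genes of the 16533 in the deposited tables, of which 13 lie in the mitochondrial genome and 91 in the nucleus. All 104 passed the filter on low counts. By symbol, 48 members belong to complex I, 4 to complex II, 9 to complex III, 22 to complex IV and 21 to complex V.

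Mice of the mKO group had the genotype Stingf/f Lyzm-Cre+/-: a loxP-flanked Sting1 gene and 1 copy of Cre in the Lyz2 locus, which is active in neutrophils, monocytes and macrophages. The control mice were Stingf/f without Cre, so both groups carried the floxed allele, and other cell types of the vein and clot keep the gene in mKO mice. All animals were in a deep vein thrombosis model, sampled at 24 h, and each library pooled 3 thrombi with the inferior vena cava around them, with 3 libraries in each group. Ages were not given in the sources used here, and p-values measure only the spread between pools.

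Oxidative phosphorylation is carried out in the inner mitochondrial membrane. Complexes I and II pass electrons from NADH and succinate to ubiquinone, complex III passes them to cytochrome c, and complex IV to oxygen. Complexes I, III and IV pump protons, and complex V, the ATP synthase, uses the gradient to make ATP. The mitochondrial genome codes for core subunits of every complex except complex II. All other subunits are nuclear, and several complex IV subunits come in isoforms used by muscle, brown fat or other tissues.

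Library totals ranged from 166083163 to 172223654 counts in mKO and from 158579864 to 180068483 in control. mKO library 3 stood apart from the other libraries on the first principal component, which held 46.9% of the variance. Sympathetic neuron markers summed to 5.45 CPM in mKO library 3 and to 141 to 412 CPM in the other libraries. Skeletal muscle markers other than members summed to 253 CPM in mKO library 3 and to 4.98 to 70.7 CPM in the others. What set mKO library 3 apart was not tested. Sting1 itself had 22.7, 21.4 and 28.7 CPM in mKO libraries 1 to 3, against 25.1, 31.4 and 27.1 CPM in control libraries 1 to 3, so the groups overlapped in these whole-tissue libraries. CPM is the count of a gene scaled to the TMM-corrected size of its library. Lyz2, whose locus carries the Cre, had 643, 1149 and 1153 CPM in mKO and 1430, 1759 and 1885 CPM in control.

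No member passed the test. The edgeR quasi-likelihood test with Benjamini-Hochberg adjustment over 16523 genes called 0 of 104 members at an adjusted p of 0.05, and it called 0.00% of all genes. At an unadjusted p under 0.05 it held 1 member, Cox8b, against 11.9% of all genes. DESeq2 also called 1 member, Cox8b, against 2.80% of all genes called in either direction and 1.33% called lower, and limma voom called 0. Log2 fold changes, mKO over control, were below 0 for 79 members and above 0 for 25, a share of 76.0% below 0 against 54.1% of all genes tested. Their median was -0.09, against -0.03 for all genes tested. The groups did not overlap for 5 members, all lower in mKO: Cox8b, Cox7a1, Ndufa12, mt-Co1 and the pseudogene Atp5l2-ps. That is 4.81% of the members, while the groups did not overlap for 18.2% of all genes, 9.39% with mKO lower and 8.76% with mKO higher. In these bulk samples fewer cells of a type and less RNA per cell cannot be told apart.

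**Figure D1:**
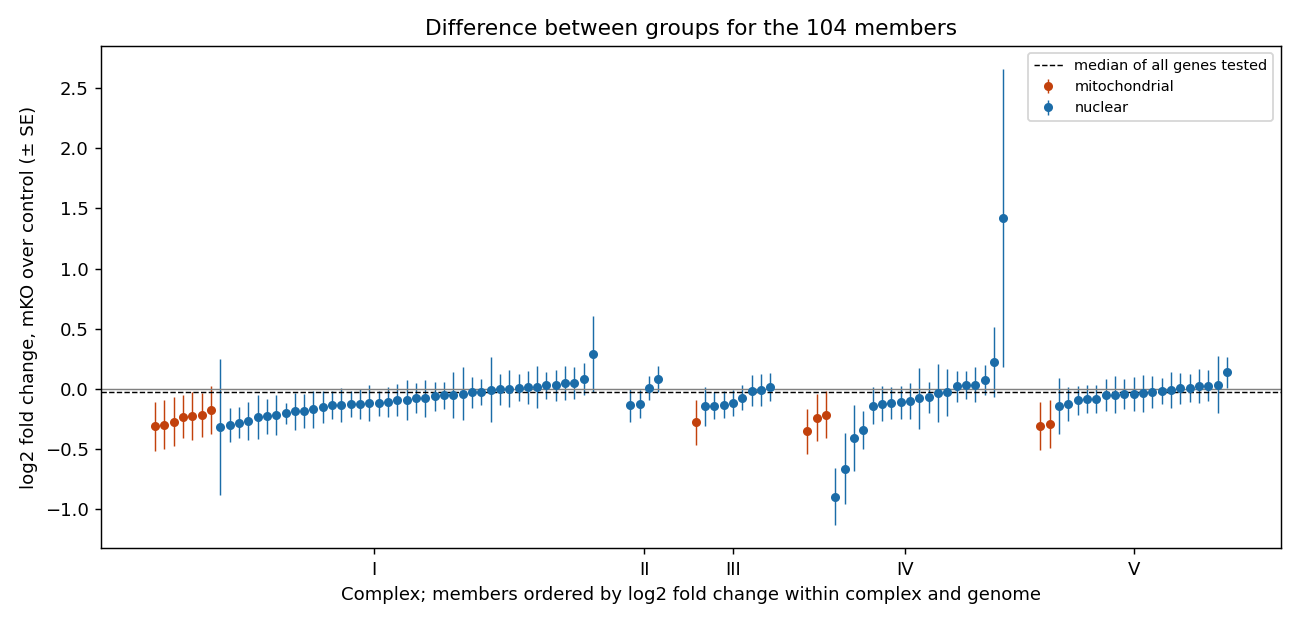
Log2 fold change of each of the 104 members, mKO over control (y axis, bars ± SE), ordered within complex I to V (x axis), with mitochondrially encoded members in orange and nuclear members in blue. All 13 mitochondrially encoded members lie below 0, from -0.35 to -0.18, and the nuclear members spread around a median of -0.07, with Cox8b lowest at -0.90 and Cox6a2 highest at 1.42.

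Transcript levels differed far more between the genomes than between the groups. Per kilobase of exon, and averaged over the 6 libraries, the mitochondrially encoded members ranged from 949 CPM per kb for mt-Nd3 to 8847 CPM per kb for mt-Co1. The highest nuclear member was Cox8a, the ubiquitous form of a small complex IV subunit, at 286 CPM per kb. Cox6a1 followed at 171 and Cox6b1 at 123 CPM per kb, both also complex IV subunits. The beta subunit of ATP synthase, Atp5b, stood at 81.5 CPM per kb. Exon lengths are those of an annotation of an earlier mouse build, and joined exons make a gene with many transcript forms look lower on this scale.

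**Figure D2:**
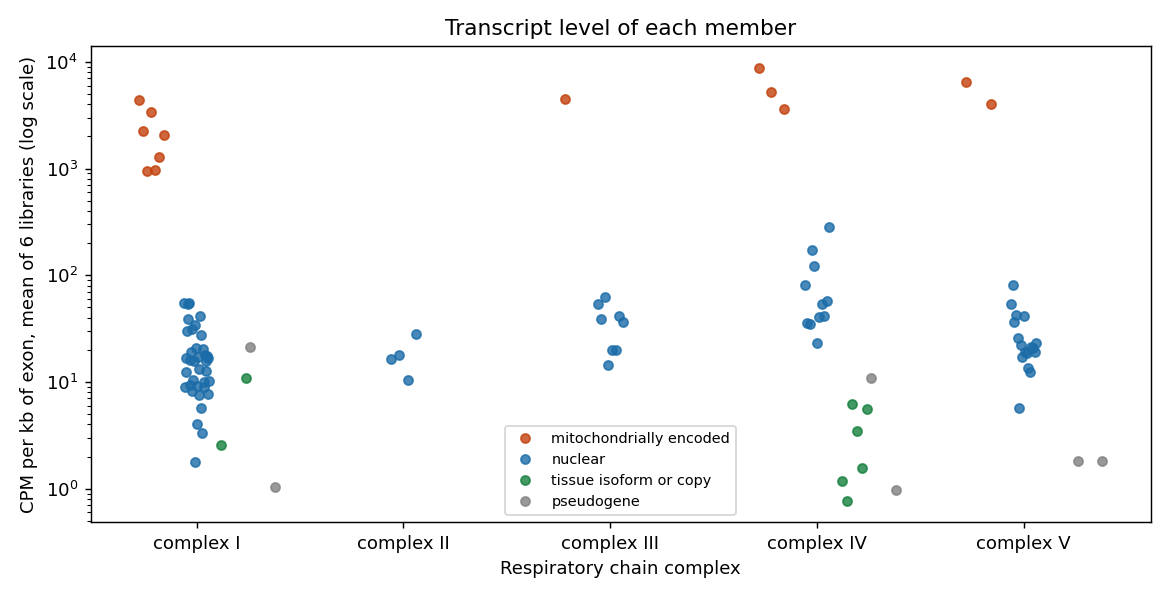
Level of each member in CPM per kb of exon (log scale, mean of all 6 libraries) by complex, with mitochondrially encoded, ubiquitous nuclear, tissue isoform or copy, and pseudogene members in separate colours. Every mitochondrially encoded member, from 949 CPM per kb upward, lies above the highest nuclear member, Cox8a at 286 CPM per kb.

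The mitochondrially encoded members were lower on average in mKO, by an amount that depended on the control libraries. Together they took 4.13%, 3.61% and 4.36% of all counts in mKO libraries 1 to 3, against 4.09%, 6.26% and 5.06% in control libraries 1 to 3. The means were 4.03% ± 0.387 in mKO and 5.13% ± 1.09 in control (SD, n = 3 each). Control library 1 lay within the mKO range, and control library 2 was the highest library for all 13 members. The 13 log2 fold changes had a median of -0.27 and ran from -0.35 to -0.18, with adjusted p from 0.486 to 0.716 in the edgeR quasi-likelihood test. Without control library 2 the median was -0.11, and without control library 1 it was -0.41.

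mt-Co1, the catalytic core of complex IV, was the 1 mitochondrially encoded member whose groups did not overlap. It had 11756, 11985 and 12267 CPM in mKO libraries, against 12720, 17736 and 15548 CPM in control libraries. The mKO libraries lay close together, and control library 1 was just above them. The log2 fold change was -0.35 ± 0.19 (SE, n = 3 each; edgeR quasi-likelihood, adjusted p = 0.486). The exact two-sided permutation test gave p = 0.1, the smallest that 3 against 3 libraries can give. Groups that do not overlap always give this value, so it adds nothing to the lack of overlap.

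Of the complex I core subunits, mt-Nd1, which lies at the ubiquinone site, had 3877, 3340 and 4113 CPM in mKO and 3620, 5541 and 4761 CPM in control. mt-Nd4, a proton-pumping subunit of the membrane arm, had 4202, 3940 and 4300 CPM in mKO and 3974, 6176 and 5295 CPM in control. In both genes control library 1 lay within the mKO range. Their log2 fold changes were -0.30 and -0.31, those of mt-Nd2 and mt-Nd3 were -0.27 and -0.22, and those of mt-Nd4l and mt-Nd5 were -0.23 and -0.22. mt-Nd6, the protein-coding gene on the opposite strand, was nearest to 0 at -0.18. The ends of mt-Nd5 and mt-Nd6 overlap by 14 bases in the annotation, and since the strand setting of the counting was not given, reads there cannot be assigned to one gene with certainty.

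mt-Cytb, the mitochondrially encoded subunit of complex III, had 4591, 4517 and 4714 CPM in mKO, against 4503, 6486 and 5751 CPM in control, and a log2 fold change of -0.28. The other complex IV subunits, mt-Co2 and mt-Co3, had log2 fold changes of -0.24 and -0.22. For complex V, mt-Atp6, part of the proton channel, had 3982, 3812 and 4022 CPM in mKO and 3768, 5817 and 5052 CPM in control. Its log2 fold change was -0.31 and that of its partner mt-Atp8 was -0.29. mt-Atp8 and mt-Atp6 overlap by 43 bases on the same strand, so reads there cannot be assigned to one gene with certainty. Their counts may not be independent. In all these genes control library 1 was near the mKO libraries, and the control libraries 2 and 3 were above them.

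Other transcripts also differed between the libraries. Smooth muscle markers, 8 of 8 tested, had log2 fold changes below 0. Their sums were 1060, 799 and 1650 CPM in mKO libraries 1 to 3 and 1590, 3290 and 1380 CPM in control libraries 1 to 3. Red cell markers summed to 271000, 285000 and 239000 CPM in mKO libraries 1 to 3 and 251000, 201000 and 259000 CPM in control libraries 1 to 3. T and NK cell, endothelium, platelet and sympathetic neuron markers were below 0 for 8 of 8 each, against 54.1% of all genes tested. Sympathetic neuron sums were 178, 269 and 5.45 CPM in mKO libraries 1 to 3 and 141, 233 and 412 CPM in control libraries 1 to 3. There mKO libraries 1 and 2 lay within the control range. Platelet sums were 3140, 4830 and 3250 CPM in mKO libraries 1 to 3 and 4160, 5420 and 6130 CPM in control libraries 1 to 3. T and NK cell sums were 16.0, 17.8 and 17.1 CPM in mKO and 18.4, 37.8 and 31.2 CPM in control. Endothelium sums were 648 to 785 CPM in mKO and 875 to 1010 CPM in control. Neutrophil sums were lowest in control libraries 2 and 3, at 9490 and 12400 CPM, with 2 of 8 markers below 0. Of the macrophage and monocyte markers 1 of 8 was below 0, Lyz2. DESeq2 called 2 of 8 T and NK cell markers and 2 of 8 endothelium markers lower. Called higher were 1 of 8 neutrophil, 1 of 8 macrophage and monocyte and 4 of 9 red cell markers. DESeq2 called 0 smooth muscle, platelet or sympathetic neuron markers, and 2.80% of all genes in either direction. The part of these cell types in the mitochondrial values was not tested. With haemoglobin and mitochondrially encoded genes left out of the scaling, the edgeR quasi-likelihood test called 0 members. It called 0 of all genes with either scaling, so this count cannot show whether the scaling mattered.

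The nuclear members lay closer to 0. They took 0.415%, 0.330% and 0.353% of all counts in mKO libraries 1 to 3, against 0.367%, 0.428% and 0.393% in control libraries 1 to 3. The means were 0.366% ± 0.0436 in mKO and 0.396% ± 0.0306 in control (SD, n = 3 each). mKO library 1 was the highest library for 46 of the 91 nuclear members, and mKO libraries 2 and 3 were lowest for 33 and 38 of them. By share of counts mKO library 1 lay within the control range and the other mKO libraries below it. The log2 fold change was below 0 for 66 of 91, and the median was -0.07. Leaving out 1 library moved the median to between -0.17, without mKO library 1, and -0.01, without mKO library 3.

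The difference between the genomes was set by few libraries. A score per library, the mean over members of a gene's log2 CPM after subtracting its average across all 6 libraries, was computed for each genome. The mitochondrial score minus the nuclear score was -0.25, -0.06 and 0.06 in mKO libraries 1 to 3, against -0.10, 0.28 and 0.06 in control libraries 1 to 3. The groups overlapped, with means of -0.08 ± 0.15 in mKO and 0.08 ± 0.19 in control (SD, n = 3 each). Taken from the fitted values, the mean log2 fold change of the mitochondrial members minus that of the nuclear members was -0.19, and it was -0.27 without control library 1 and -0.09 without control library 2.

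**Figure D3:**
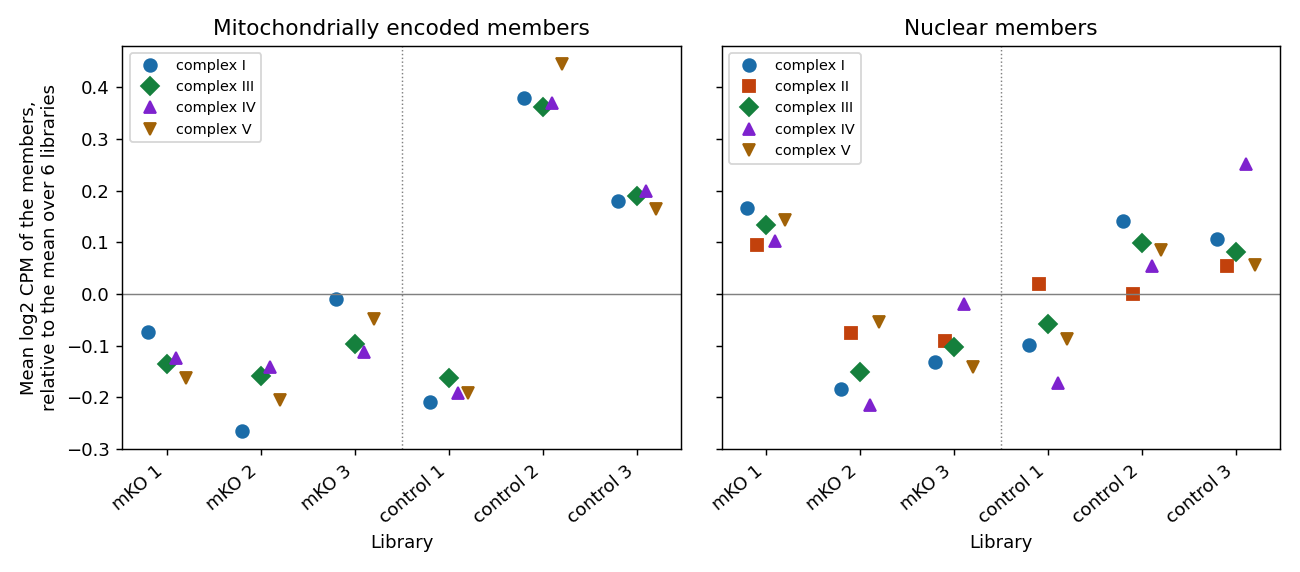
Score of each complex in each library (y axis, log2 CPM minus the gene's average across libraries, then averaged over members), mKO libraries left of control libraries, for mitochondrially encoded members (left panel) and nuclear members (right panel). Control library 1 sits with the mKO libraries for the mitochondrially encoded members (overall score -0.20), and mKO library 1 sits with control libraries 2 and 3 for the nuclear members (overall score 0.14).

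The nuclear medians of the complexes were described without a test. The median log2 fold change was -0.10 for the 41 nuclear members of complex I, -0.06 for the 4 of complex II, -0.09 for the 8 of complex III, -0.08 for the 19 of complex IV and -0.04 for the 19 of complex V. The mitochondrially encoded members of complexes I, III, IV and V had medians of -0.23, -0.28, -0.24 and -0.30. The standard error of a single gene had a median of 0.13 for ubiquitous nuclear members and 0.20 for mitochondrially encoded ones. It does not give the precision of a median over a complex, and the complexes were not tested against each other.

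In complex I, the nuclear member with the smallest unadjusted p was Ndufa12, an accessory subunit of the matrix arm. It had 17.31, 18.05 and 18.70 CPM in mKO, against 20.62, 20.003 and 21.68 CPM in control, so the groups did not overlap. Its log2 fold change was -0.20 ± 0.09 (SE; edgeR quasi-likelihood, adjusted p = 0.427). Ndufs4, an accessory subunit of the NADH-oxidizing part, had 25.1, 25.8 and 23.0 CPM in mKO and 25.0, 32.8 and 32.2 CPM in control. Control library 1 lay within the mKO range, and the log2 fold change was -0.28 ± 0.13 (SE; edgeR quasi-likelihood, adjusted p = 0.435). Ndufa4, named for complex I but since assigned to complex IV, averaged 68.1 ± 7.55 CPM in mKO and 83.8 ± 10.4 CPM in control (SD, n = 3 each), with overlapping groups. Its relative Ndufa4l2, a gene induced by hypoxia, averaged 2.80 ± 0.498 CPM in mKO and 2.82 ± 0.928 CPM in control.

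Complex II, the succinate dehydrogenase that also serves the tricarboxylic acid cycle, had no mitochondrially encoded subunit to compare. The flavoprotein gene Sdha had 66.6, 69.0 and 67.6 CPM in mKO, against 70.1, 66.0 and 66.2 CPM in control, a log2 fold change of 0.01 ± 0.10 (SE). The iron-sulfur subunit Sdhb averaged 37.9 ± 6.89 CPM in mKO and 41.7 ± 0.595 CPM in control. The membrane anchors Sdhc and Sdhd had log2 fold changes of -0.13 and 0.08. The groups overlapped for all 4 genes.

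In complex III, Uqcrq, a small subunit, was the most abundant nuclear member by CPM, with 74.7, 59.4 and 63.7 CPM in mKO and 59.2, 68.5 and 71.4 CPM in control. Its log2 fold change was -0.01 ± 0.13 (SE). The core protein gene Uqcrc2 averaged 48.2 ± 4.88 CPM in mKO and 53.1 ± 2.20 CPM in control, and the small subunit Uqcr11 averaged 23.6 ± 2.76 CPM in mKO and 25.9 ± 1.70 CPM in control (SD, n = 3 each). The groups overlapped for each of these genes.

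In complex V, Atp5b had 358, 353 and 315 CPM in mKO, against 343, 355 and 347 CPM in control. The groups overlapped, and the log2 fold change was -0.03 ± 0.13 (SE). Atp5o, a subunit of the stalk that links the catalytic head to the membrane part, had a log2 fold change of -0.12, and Atp5mpl, a small membrane subunit, had 0.14. The complex V member whose groups did not overlap, Atp5l2-ps, is a pseudogene at 0.538 ± 0.0198 CPM in mKO and 0.594 ± 0.0203 CPM in control, and reads of its parent gene may be counted there. It held 84 to 111 counts per library, and the counting error of such a count, 0.0549 to 0.0626 CPM, exceeds those SDs. The 6 pseudogenes among the members are uncertain for that reason, and so are the parent genes.

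Complex IV held both the lowest and the highest log2 fold change among the members, each in a tissue isoform. Cox8b, the form of subunit 8 used in heart, skeletal muscle and brown fat of the mouse, had 1.51, 1.05 and 1.62 CPM in mKO, against 2.16, 3.00 and 2.62 CPM in control. All mKO libraries were below all control libraries. The log2 fold change was -0.90 ± 0.24 (SE, n = 3 each), with an adjusted p of 0.275 in the edgeR quasi-likelihood test and 0.0289 in DESeq2. The DESeq2 call was kept without mKO library 3 (adjusted p = 0.0310) and without control library 1 (0.0200). It was lost without mKO library 1 (0.0591), mKO library 2 (0.0727), control library 2 (0.258) or control library 3 (0.154), while the DESeq2 log2 fold change in these 4 repeats stayed between -0.926 and -0.715, against -0.873 with all libraries.

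Cox7a1, the muscle and brown fat form of subunit 7a, had 0.861, 0.465 and 0.632 CPM in mKO and 0.904, 0.982 and 1.22 CPM in control. The groups did not overlap, though mKO library 1 and control library 1 differed by less than the counting error of either (0.0705 and 0.0701 CPM), and the log2 fold change was -0.66 ± 0.30 (SE; edgeR quasi-likelihood, adjusted p = 0.434). The ubiquitous partners were far more abundant and lay near 0. Cox8a had 194, 184 and 160 CPM in mKO, against 158, 174 and 194 CPM in control, a log2 fold change of 0.04 ± 0.14 (SE). Cox7a2 averaged 37.2 ± 4.17 CPM in mKO and 40.3 ± 5.01 CPM in control, and Cox7a2l, a relative that helps to join complexes III and IV, averaged 79.5 ± 7.55 CPM in mKO and 77.8 ± 2.81 CPM in control (SD, n = 3 each).

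Most markers of thermogenic fat had lower values in mKO, as Cox8b and Cox7a1 did. Of the 6 other markers of the list 5 were tested, 4 had log2 fold changes below 0, and in 3 of them, Ucp1, Cidea and Cpt1b, the groups did not overlap. Their summed level was 9.19, 10.3 and 12.7 CPM in mKO libraries, against 16.2, 15.6 and 12.6 CPM in control libraries. Most of this sum was Dio2, a deiodinase also made outside fat, which had 7.28, 7.42 and 10.95 CPM in mKO and 7.90, 9.58 and 3.60 CPM in control, a log2 fold change of 0.28 with overlapping groups. Ucp1, the uncoupling protein that defines brown and beige fat cells, had 0.295, 0.183 and 0.263 CPM in mKO and 2.61, 0.417 and 4.34 CPM in control. Its log2 fold change was -3.30, with an adjusted p of 0.274 in the edgeR quasi-likelihood test and 2.62e-04 in DESeq2. Cidea had 0.803, 1.08 and 0.427 CPM in mKO and 2.29, 2.55 and 2.44 CPM in control. The log2 fold change of Cidea was -1.66, with an adjusted p of 0.201 in the edgeR quasi-likelihood test and 7.0e-04 in DESeq2. Cpt1b had an adjusted p of 0.0519 in DESeq2. White adipocyte markers were lower in mKO too: 7 of 8 had log2 fold changes below 0, the groups did not overlap for 4, and DESeq2 called Fabp4, a fatty acid carrier (adjusted p = 0.02295). They summed to 715 to 1000 CPM in mKO and 1180 to 1340 CPM in control. Of 8 cardiac muscle markers 4 were tested and 3 had log2 fold changes below 0, with sums of 3.35 to 5.11 CPM in mKO and 3.92 to 7.67 CPM in control. Among them Ryr2, a calcium release channel, had a log2 fold change of -1.13 with groups that did not overlap (adjusted p = 0.269 in the edgeR quasi-likelihood test and 0.0308 in DESeq2), and the defining markers Myh6, Nppa, Myl7 and Tnni3 were not among the genes tested. Of all genes tested, 54.1% had log2 fold changes below 0, and the groups did not overlap for 18.2%, 9.39% with mKO lower. DESeq2 called 2.80% of all genes. The part of fat or cardiac muscle in the Cox8b and Cox7a1 values was not tested.

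Cox6a2, the heart and skeletal muscle form of subunit 6a, followed another set of transcripts. It had 0.497, 0.0785 and 1.71 CPM in mKO, against 0.0817, 0.115 and 0.665 CPM in control. The values were high in mKO library 3 and control library 3 and the groups overlapped, with a log2 fold change of 1.42 ± 1.24 (SE; edgeR quasi-likelihood, adjusted p = 0.640). The other skeletal muscle markers tested, 11 of 14 listed, summed to 35.4, 6.22 and 253 CPM in mKO and 4.98, 6.30 and 70.7 CPM in control, high in the same libraries. The defining markers Myh2, Myh7 and Mb were not among the genes tested. The part of skeletal muscle in the Cox6a2 values was not tested. The ubiquitous Cox6a1 had 130, 119 and 103 CPM in mKO and 116, 127 and 126 CPM in control.

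The remaining isoform pairs gave no separation. Cox4i1, the common form of subunit 4, averaged 126 ± 11.9 CPM in mKO and 124 ± 8.75 CPM in control, and Cox4i2, the form used in lung and under low oxygen, averaged 0.910 ± 0.186 CPM in mKO and 0.963 ± 0.121 CPM in control (SD, n = 3 each). Cox6b1 had a log2 fold change of -0.13, and Cox6b2, a form best known from testis, had -0.04. Cox7b, which has no measured partner here, had -0.10. Cox5a, which with Cox7a1 and Cox8b had one of the smallest unadjusted p values in complex IV, had 67.9, 71.6 and 60.3 CPM in mKO and 69.2, 84.2 and 99.8 CPM in control. Its groups overlapped through control library 1, and its log2 fold change was -0.34 ± 0.16 (SE; edgeR quasi-likelihood, adjusted p = 0.443). Cox5a was chosen after its values were seen.

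**Figure D4:**
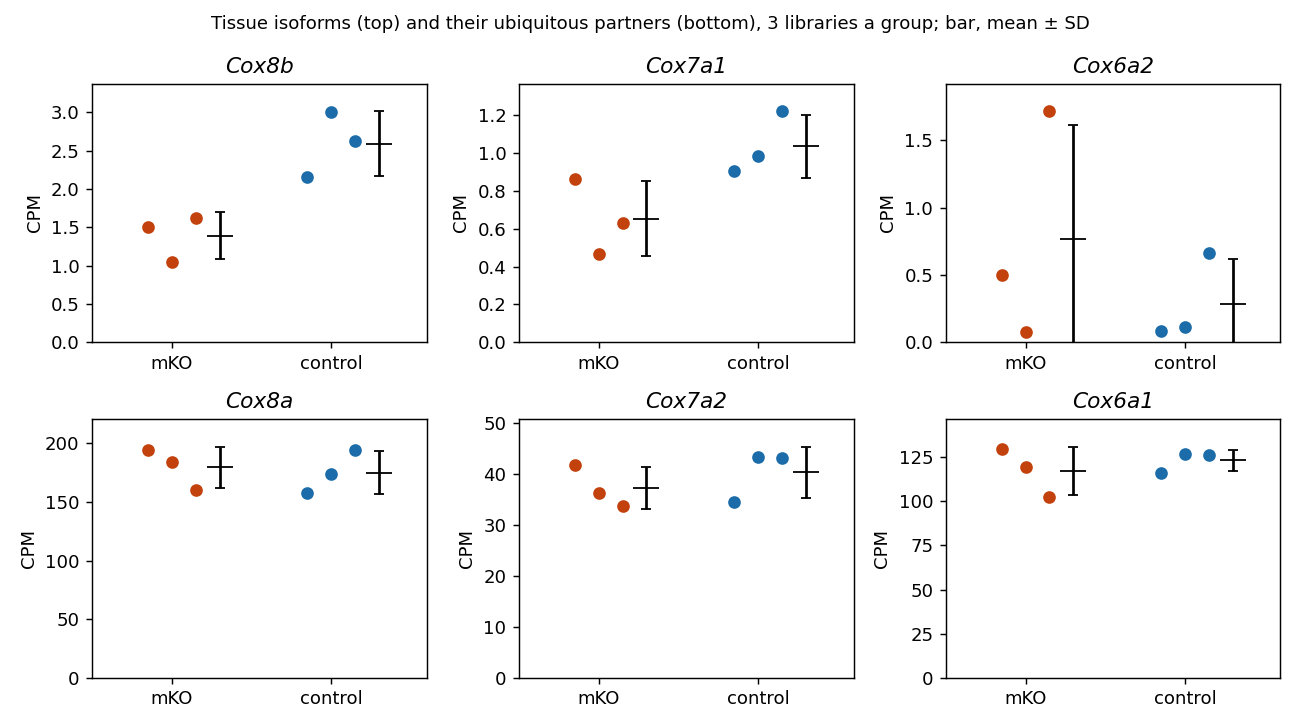
Levels in CPM of 3 tissue isoforms of complex IV subunits (top row) and their ubiquitous partners (bottom row) in each library, mKO left of control, with mean ± SD beside the points (n = 3 each). Cox8b and Cox7a1 are lower in every mKO library than in every control library, Cox6a2 is highest in mKO library 3 at 1.71 CPM, and the groups overlap for the 3 ubiquitous partners.

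Promoter sequences are shown for Cox8b, the member that DESeq2 called, and for its ubiquitous partner Cox8a. That of Cox6a1 is shown as a window with 2 of the motifs long linked to nuclear respiratory genes, and was picked for those matches. They are from RefSeq on build GRCm38.p6, 250 bases before to 50 after the start, on the gene's strand, and 68 of the 91 nuclear members matched an entry. Capitals mark the searched motifs on either strand. These were CCGGAAG, which ETS factors such as GABP bind, CGCATGCG, the core of the NRF-1 site, and AAGATGGCG, a YY1 site. The general promoter motif searched was the TATA box, TATAAA. An E-box, a site class of muscle regulators among others, was searched as CAGCTG. No marked matches overlap each other in these windows. Cox8b lies at chr7:140900397-140900696 (minus strand), Cox8a at chr19:7217567-7217866 (minus strand) and Cox6a1 at chr5:115348909-115349208 (minus strand).
Cox8b: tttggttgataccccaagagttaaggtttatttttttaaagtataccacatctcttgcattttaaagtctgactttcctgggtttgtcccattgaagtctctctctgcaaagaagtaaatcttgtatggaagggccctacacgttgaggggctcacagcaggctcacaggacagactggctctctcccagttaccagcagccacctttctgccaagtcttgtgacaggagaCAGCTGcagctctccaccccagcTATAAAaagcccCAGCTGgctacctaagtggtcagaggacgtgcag
Cox8a: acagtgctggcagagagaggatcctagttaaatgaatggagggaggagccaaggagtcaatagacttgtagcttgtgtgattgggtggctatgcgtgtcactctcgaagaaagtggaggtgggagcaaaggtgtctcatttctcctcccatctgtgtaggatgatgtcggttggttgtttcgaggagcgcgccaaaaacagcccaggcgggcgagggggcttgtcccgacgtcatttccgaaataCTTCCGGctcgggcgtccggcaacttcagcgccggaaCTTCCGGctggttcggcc
Cox6a1: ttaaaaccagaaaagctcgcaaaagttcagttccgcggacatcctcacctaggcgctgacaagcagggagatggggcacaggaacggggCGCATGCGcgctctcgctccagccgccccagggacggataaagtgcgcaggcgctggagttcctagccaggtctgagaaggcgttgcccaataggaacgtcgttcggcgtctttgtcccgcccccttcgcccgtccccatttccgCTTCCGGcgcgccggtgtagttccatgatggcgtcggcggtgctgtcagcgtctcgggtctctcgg
The Cox8b window held 1 TATAAA and 2 CAGCTG, the Cox8a window held 2 CCGGAAG, and the Cox6a1 window held 1 CCGGAAG and 1 CGCATGCG. The windows of Cox7a1 and of its ubiquitous partner Cox7a2 held 0 matches to the 5 motifs. Over the 70 windows of 65 ubiquitous nuclear members, CCGGAAG was present in 24.3%, against 8.86% of all 32851 windows and 15.5% of the windows of genes tested. CGCATGCG was present in 12.9%, against 1.87% of all windows and 3.34% of those of genes tested. AAGATGGCG was present in 7 of the 70 windows, against 1.40% of all windows and 2.59% of those of genes tested. TATAAA was present in 7 of the 70 windows, against 13.6% of all windows and 8.11% of those of genes tested. CAGCTG was present in 5 of the 70 windows, against 16.3% of all windows and 15.9% of those of genes tested. A match describes letters in a window and shows neither binding nor a cause of any difference between the groups.

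Related gene lists gave the same count of calls. The edgeR quasi-likelihood test called 0 genes in each of 7 lists, and DESeq2 called 1 gene over them, Ucp1. The median log2 fold change was -0.07 for 47 assembly factors of the complexes, -0.14 for 22 electron carriers and subunits outside the symbol rule, -0.12 for 18 genes of the tricarboxylic acid cycle and -0.08 for 80 proteins of the mitochondrial ribosome. It was -0.08 for 32 genes of mitochondrial DNA and RNA handling, 0.15 for 14 regulators of mitochondrial biogenesis and -0.08 for 14 carriers and uncoupling proteins. The groups did not overlap for 27.8% of the tricarboxylic acid cycle genes and for 8.75% of the ribosomal proteins, against 18.2% of all genes. The share was 12.8% for assembly factors, 18.2% for electron carriers and subunits outside the rule, and 12.5% for DNA and RNA handling. For biogenesis regulators it was 21.4%, and for carriers and uncoupling proteins 14.3%.

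Among the named genes of these lists, Sirt1, a deacetylase that acts on the biogenesis coactivator PGC-1α, had 14.22, 15.63 and 16.59 CPM in mKO, against 13.26, 10.95 and 10.83 CPM in control. All mKO libraries were above all control libraries, and the log2 fold change was 0.41 ± 0.12 (SE; edgeR quasi-likelihood, adjusted p = 0.312). Idh3a, a subunit of the NAD-dependent isocitrate dehydrogenase, had 21.1, 18.7 and 19.6 CPM in mKO and 22.4, 26.3 and 23.3 CPM in control. Its groups did not overlap either, with a log2 fold change of -0.28 ± 0.10 (SE; edgeR quasi-likelihood, adjusted p = 0.371). Cox18, which inserts a complex IV subunit into the membrane, had a log2 fold change of -0.37, and Coq8a, needed for ubiquinone synthesis, had -0.54. Pnpt1, an RNA-processing enzyme of mitochondria, had -0.37. In all 3 the mKO libraries were below the control libraries. Mdh2, the malate dehydrogenase of the cycle and the most abundant gene of its list, had 0.24. Mrpl43, a ribosomal protein, had 0.25, and in both genes mKO libraries lay above control libraries. The most abundant genes of the other lists had overlapping groups. Their log2 fold changes were -0.18 for Coa5, -0.10 for Cycs, 0.10 for Mrpl33, 0.21 for Polg, 0.20 for Yy1 and 0.09 for Ucp2. Ppargc1a, the gene of PGC-1α and also a marker of thermogenic fat, had the largest difference among the biogenesis regulators and in the other direction, with 0.329, 0.223 and 0.275 CPM in mKO and 1.40, 0.565 and 0.316 CPM in control. The groups overlapped, since mKO library 1 lay above control library 3, and the log2 fold change was -1.465 ± 0.54 (SE; edgeR quasi-likelihood, adjusted p = 0.371). It was chosen after its values were seen.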

How the data were processed

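The authors deposited read counts per gene, 1 table per library, and the values are whole numbers without normalization. Per the submitters' processing notes, which assign no roles, the tools were featureCounts 2.0.1, HISAT2 2.1.0, Trim Galore 0.4.0 and FastQC 0.11.8, with the build GRCm39. Polyadenylated RNA was selected and read in pairs, per the labels' protocols. The strand setting, the annotation and the rule by which the gene list was shortened were not stated there.

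The test was the robust quasi-likelihood F-test of edgeR 4.0.16 (R 4.3.3) on counts with TMM and the default expression filter, which kept 16523 genes, with limma 3.58.1 (voom) and DESeq2 1.42.0 as alternatives. Benjamini-Hochberg adjustment ran over all genes, and 0.05 was the threshold. The scripts were tested on simulated data. Scores use log2 CPM with a prior count of 2. Chromosome names, exon lengths and overlaps come from GENCODE M21 (GRCm38), which matched all 104 members.

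Named genes were all mitochondrially encoded members; per complex the most abundant nuclear member and the 2 with the smallest unadjusted p; members called by edgeR or DESeq2; the isoform families and the Sdh genes; and per pathway list the called genes, or else the gene with the smallest unadjusted p and the most abundant one. The members and lists were chosen with earlier results of these data known. Replicate tables differed by more than sampling noise (chi-square per gene 213.2 to 511.1). Library totals of at least 158579864 counts make counting error small for abundant members but not for members near 0.5 CPM.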

Additional observations from a re-analysis of the deposited data

How the results depend on the processing

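With other normalizations, other filters, voom or a scaling without mitochondrially encoded and haemoglobin genes, edgeR or voom called 0 genes and 0 members, and the medians of the genomes and complexes kept their direction. DESeq2 called 462 genes and 1 member. Leaving out 1 library, edgeR called 0 to 7 genes (7 without control library 1, 4 without mKO library 3, 2 without control library 3) and 0 members. DESeq2 repeats, chosen after seeing the data, called 0 to 8 members and 243 to 764 of all genes. The 8, with 764 genes called, without control library 1, were Cox8b and 7 mitochondrially encoded genes: mt-Co1, mt-Atp6, mt-Co2, mt-Nd4, mt-Cytb, mt-Co3 and mt-Nd2.

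Small log2 fold changes changed sign with a setting. Uqcrq was 0.012 with DESeq2 and its size factors. Ndufa4l2 was 0.015 with DESeq2 size factors, 0.016 with DESeq2, 0.04 with voom and 0.001 with the other scaling. With upper-quartile scaling Sdha was -0.018 and Cox4i1 was -0.005. Leaving out 1 library gave ranges of -0.035 to 0.115 for Cox8a, -0.048 to 0.085 for Cox4i1, -0.239 to 0.163 for Cox6b2, -0.205 to 0.276 for Ndufa4l2, -0.009 to 0.035 for Sdha, -0.103 to 0.060 for Uqcrq, -0.249 to 0.044 for Cox4i2, -0.028 to 0.105 for Cox7a2l, -0.056 to 0.236 for Ucp2, -0.059 to 0.029 for Atp5b and -0.149 to 0.015 for Cox6a1. The nuclear median of complex V ranged from -0.123 to 0.029. The cause was not tested.

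Libraries with the same replicate number did not deviate together (correlations of -0.136, -0.152 and -0.267). These values were centred within each small group, which constrains the correlations, so they cannot exclude a pairing. The main test treated the samples as unpaired. With a replicate block 0 genes were called, the mitochondrial median was -0.25, the nuclear median -0.07 and Ndufa4l2 0.027.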

Other observations

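The make-up of the mitochondrially encoded total was similar across libraries. mt-Co1 took 28.6% to 30.4% of the counts of the 13 genes in mKO libraries and 30.0% to 31.8% in control libraries, so the ranges overlapped. The regulators Gabpa and Gabpb1, subunits of the ETS factor GABP, had mKO libraries above control libraries, as Sirt1 did. The log2 fold changes of Gabpa and Gabpb1 were 0.26 and 0.20, and Gabpb2, of the same list, had 0.14 with overlapping groups. The groups did not overlap for 21.4% of the 14 regulators tested, against 18.2% of all genes. These Gabp genes were chosen after their values were seen, and the edgeR quasi-likelihood test called none of them.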
